A study of Mus musculus with 12 samples.

Results

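Cytochrome P450 genes encode heme enzymes that insert oxygen into drugs, fatty acids, sterols and vitamin D. In the count table of this study, 88 gene symbols were written as a P450 family number, a subfamily letter and a gene number, once the retinoic acid genes of the Cyp26 family and the steroid synthesis genes Cyp11a1, Cyp17a1 and Cyp19a1 were set aside. A symbol became a member when at least 10 reads were counted in any 3 of the 12 libraries, and 35 did so, of 48795 genes in the table. Of the other symbols, 12 had no read in any library and 41 had reads but stayed under the minimum. The third-highest count of a symbol decided its place. Just inside stood Cyp2w1 and Cyp2t4 with 11 reads, and Cyp2d40 and Cyp4f39 with 13, while just outside stood Cyp2u1 and Cyp8b1 with 9, Cyp2c69 with 8 and Cyp1a2 with 7. All 35 members passed the filter of the test across all genes. Of the members, 4 met the minimum only with the libraries of a group where they were high. Cyp2b10 and Cyp4a32 needed E18 DKO, Cyp4f39 needed both E18 WT and E12 DKO, and Cyp2d40 needed each group other than E18 DKO. Their levels are therefore a description with no test, and the counts of members below describe the family and support nothing beyond it.

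RNA of mouse fetal membranes was sequenced in 4 groups of 3 libraries. E18 DKO are membranes of embryonic day 18 lacking both biglycan and decorin, small leucine-rich proteoglycans of the extracellular matrix, and E18 WT are the libraries labelled wild type of the same day. E12 DKO and E12 WT are the same genotypes at day 12. The label of every DKO library gives the strain as C3H and C57BL/6, and that of every WT library as C3H, so genotype and strain cannot be told apart. The labels do not say whether libraries of a group came from separate animals, so the p-values measure only the spread between these samples. In a bulk sample, fewer cells of a type and less RNA per cell cannot be told apart.

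P450 enzymes of the endoplasmic reticulum receive electrons from P450 oxidoreductase, Por, and those of mitochondria receive them from ferredoxin, Fdx1. Liver holds the widest set of P450 enzymes in adult mice, and the visceral endoderm of the yolk sac, one of the fetal membranes, shares many genes with liver. Several P450 genes are switched on by ligand-activated receptors: Cyp1b1 by the aryl hydrocarbon receptor, Cyp2b10 by Nr1i3, Cyp4a10 by Ppara and Cyp24a1 by the vitamin D receptor.

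The 250 bases before the RefSeq start (GRCm38.p6) are shown for 6 members, 5′ to 3′ on the strand of the gene. The Cyp2c genes are shown because Cyp2c67, Cyp2c68 and Cyp2c70 lie in 1 cluster on chromosome 19, and yet Cyp2c70 was higher in E18 DKO than in E18 WT and the other 2 lower. Cyp4a32, Cyp2b10 and Cyp1b1 are shown because, besides Cyp2c70, they rose most in E18 DKO against E18 WT among members with a RefSeq promoter. Cyp4a10 rose more than Cyp1b1, but RefSeq gave no promoter for it. The positions are chr19:39649043-39649292, minus strand, for Cyp2c67, chr19:39741102-39741351, minus strand, for Cyp2c68, chr19:40187287-40187536, minus strand, for Cyp2c70, chr4:115600688-115600937, plus strand, for Cyp4a32, chr7:25897408-25897657, plus strand, for Cyp2b10 and chr17:79715062-79715311, minus strand, for Cyp1b1. Capitals mark matches, on either strand, to the TATA box TATAAA, the dioxin response core GCGTG, the nuclear receptor half-site AGGTCA, the HNF1 half-site GTTAAT and the HNF4 core CAAAGTCCA.
Cyp2c67: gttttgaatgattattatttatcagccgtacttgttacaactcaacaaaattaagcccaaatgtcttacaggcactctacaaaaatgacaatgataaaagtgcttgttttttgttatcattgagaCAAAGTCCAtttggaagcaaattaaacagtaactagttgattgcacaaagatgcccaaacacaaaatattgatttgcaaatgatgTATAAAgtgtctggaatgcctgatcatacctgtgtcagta
Cyp2c68: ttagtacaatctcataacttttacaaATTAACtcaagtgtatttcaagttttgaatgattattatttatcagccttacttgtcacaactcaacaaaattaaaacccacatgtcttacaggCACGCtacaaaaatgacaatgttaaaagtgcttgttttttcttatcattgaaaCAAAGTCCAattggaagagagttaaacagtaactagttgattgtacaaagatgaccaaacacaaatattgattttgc
Cyp2c70: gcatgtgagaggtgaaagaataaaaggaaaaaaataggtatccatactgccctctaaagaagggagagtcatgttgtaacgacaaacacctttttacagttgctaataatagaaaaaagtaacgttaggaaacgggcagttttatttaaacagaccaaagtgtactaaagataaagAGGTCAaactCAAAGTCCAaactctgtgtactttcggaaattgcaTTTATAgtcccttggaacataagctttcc
Cyp4a32: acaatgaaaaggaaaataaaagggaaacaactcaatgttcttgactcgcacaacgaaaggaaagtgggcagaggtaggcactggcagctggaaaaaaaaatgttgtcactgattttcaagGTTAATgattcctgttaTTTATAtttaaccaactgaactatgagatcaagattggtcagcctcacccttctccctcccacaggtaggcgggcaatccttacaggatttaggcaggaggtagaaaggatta
Cyp2b10: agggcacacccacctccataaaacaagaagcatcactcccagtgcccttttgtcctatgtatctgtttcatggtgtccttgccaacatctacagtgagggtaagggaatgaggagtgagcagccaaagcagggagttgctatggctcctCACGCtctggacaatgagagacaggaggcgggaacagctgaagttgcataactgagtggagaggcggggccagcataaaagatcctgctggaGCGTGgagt
Cyp1b1: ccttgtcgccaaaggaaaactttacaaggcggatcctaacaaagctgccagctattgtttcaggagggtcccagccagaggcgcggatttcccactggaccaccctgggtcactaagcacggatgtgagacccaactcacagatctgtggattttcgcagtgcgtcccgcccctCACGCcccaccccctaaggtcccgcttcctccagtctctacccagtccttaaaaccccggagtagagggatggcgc

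RefSeq gave a promoter for 26 of the 35 members. The HNF4 core was found in 3 of these, the Cyp2c67, Cyp2c68 and Cyp2c70 promoters printed above, and in 0.384% of all 32851 mouse promoters of the same length. The letters of this motif therefore stood before the start of Cyp2c70, which rose, and of Cyp2c67 and Cyp2c68, which fell. For Cyp2c23, which also fell, RefSeq gave no promoter, so its motifs are not known here. Cyp2c67 and Cyp2c68 shared an unbroken run of 27 bases, while the longest run that Cyp2c70 shared was 9 bases with Cyp2c67 and 10 with Cyp2c68. The TATA box was found in 7 of the 26, against 12.4% of all promoters, and lay 40 bases before the start in Cyp2c67 and 29 in Cyp2c70, but 113 in Cyp4a32. The dioxin response core was found in 9 (28.2% of all promoters), the nuclear receptor half-site in 3 (14.0%) and the HNF1 half-site in 4 (6.43%). No 2 matches overlapped in the sequences shown. A match describes these letters and shows no bound factor.

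Total counts lay between 19967593 and 33065424 per library. The targeted genes followed the labels: Bgn was at 14.3 to 25.1 CPM (counts relative to library size, scaled with TMM factors) in the 6 DKO libraries and at 223 to 686 CPM in the 6 WT libraries, and Dcn at 4.67 to 8.44 CPM and 198 to 978 CPM. Other signs did not follow the labelled stage. Of all beta-globin counts, the embryonic forms Hbb-y and Hbb-bh1 took 1.33 to 2.67% in E18 DKO, but 74.8 to 87.8% in the libraries labelled E18 WT, against 82.4 to 85.1% in E12 DKO. In E12 WT 1 the share was 14.9% (95% exact binomial interval 14.6 to 15.1%, counting error only), against 95.1% and 97.1% in E12 WT 2 and 3. The day of the libraries labelled E18 WT and of E12 WT 1 is thus in doubt, and every comparison with them is one with the libraries so labelled. E18 WT 3 held trophoblast and decidua genes at 972 CPM in sum, against at most 112 CPM in any other library, and E12 WT 3 had 21.2% mitochondrial counts, against 3.58 to 7.78% elsewhere.

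Per kilobase of exon and over the 12 libraries, Cyp21a1, the adrenal-type steroid hydroxylase, had the highest mean level, 90.3 CPM per kb. Cyp2s1, an epithelial enzyme inducible by dioxin, followed at 40.7 CPM per kb, and then Cyp2c70 at 19.4, Cyp24a1 at 15.2, Cyp2c68 at 12.5, Cyp2d22 at 10.5 and Cyp20a1 at 10.1 CPM per kb. Cyp4f39 was the lowest at 0.0936 CPM per kb. The groups differed in this order: in E18 DKO, Cyp2s1 at 74.7 and Cyp2c70 at 69.8 CPM per kb stood above Cyp21a1 at 62.4, while Cyp21a1 and Cyp2s1 were the top 2 in the other groups and Cyp2c70 was at 1.10 CPM per kb in E18 WT, 1.60 in E12 DKO and 5.05 in E12 WT. On the scale of CPM, 22 members averaged 1 CPM or more in E18 DKO, 23 in E18 WT, 21 in E12 DKO and 24 in E12 WT, so a similar number of P450 genes was detected in each group.

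**Figure D1:**
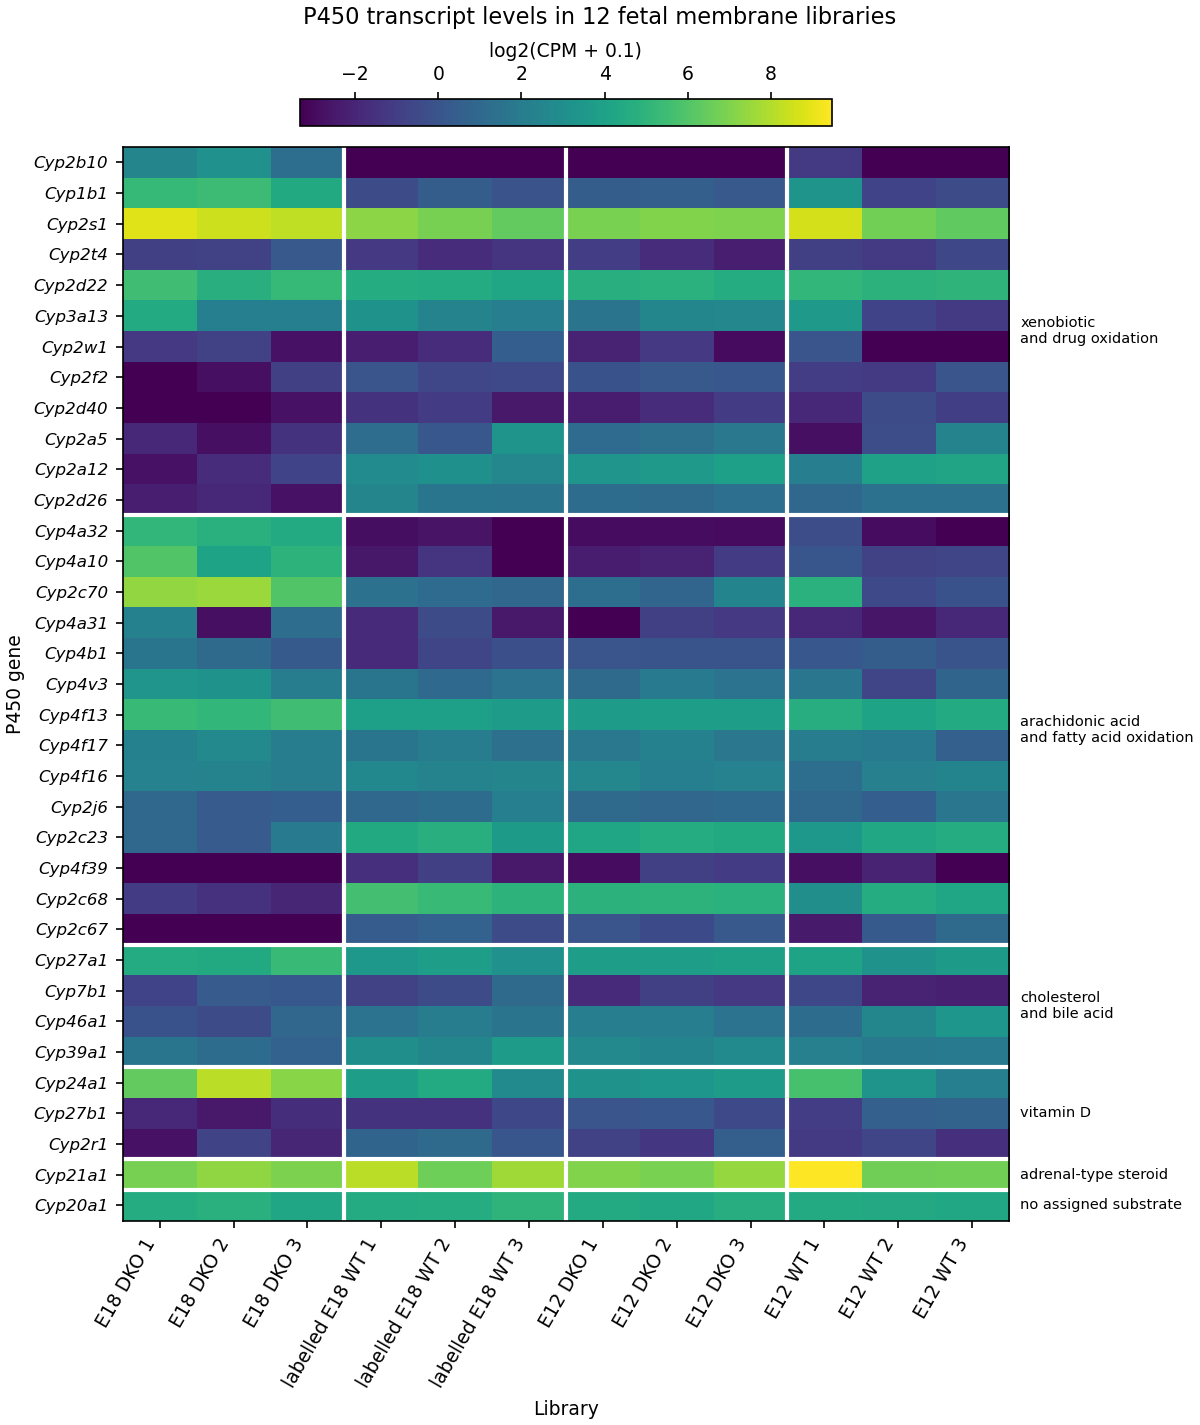
Level of each of the 35 members in each of the 12 libraries as log2(CPM + 0.1), with members grouped by role and libraries ordered E18 DKO, E18 WT, E12 DKO and E12 WT. The E18 DKO columns stand apart from the other 9, and E12 WT 1 differs from E12 WT 2 and 3 in members such as Cyp2c70, at 28.6 CPM against 0.607 and 0.824 CPM.

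The DKO and WT libraries were compared at each labelled stage. Loss of both proteoglycans cannot be told apart from strain here, and the day of E18 WT and of E12 WT 1 is in doubt. In E18 DKO against E18 WT, the fatty acid hydroxylase Cyp4a10, the bile acid enzyme Cyp2c70, Cyp1b1 and the vitamin D inactivating enzyme Cyp24a1 led the rises. Members of the Cyp2a, Cyp2c and Cyp2d subfamilies, Cyp2c68, Cyp2d26, Cyp2a12, Cyp2a5 and Cyp2c23, led the falls. These subfamilies did not fall as a whole, since Cyp2c70 and Cyp2d22 rose. In all, 12 members rose and 11 fell among the 35, by edgeR's quasi-likelihood test with a Benjamini-Hochberg adjusted p under 0.05 over all 18153 tested genes. Without the 4 members that needed 1 group for the minimum, these were 10 and 9 among 31. The calls are 65.7% of the members, beside 42.3% of all tested genes, with 20.5% higher and 21.8% lower. Scaled by library size alone the split was 10 and 13 among the members, and 2382 higher and 6015 lower among all tested genes, against 3725 and 3953 with TMM factors. The median log2 fold change was -0.19 over the members and -0.04 over all tested genes. The enzymes of fatty acid and arachidonic acid oxidation held 6 rises and 4 falls among 14 members. Those of xenobiotic oxidation held 4 and 4 among 12. Those of cholesterol and bile acids held 1 and 2 among 4, and those of vitamin D 1 and 1 among 3. The fatty acid counts include Cyp4a32 as a rise and Cyp4f39 as a fall, and the xenobiotic counts Cyp2b10 and Cyp2d40 likewise. These met the minimum only with a group where they were high, so their values are descriptions. Roles of Cyp2c and Cyp2a genes were assigned by subfamily. The bile acid enzymes Cyp2c70 and Cyp2a12 were therefore counted under fatty acid and xenobiotic oxidation. Groups did not overlap in CPM for 27 members (14 higher and 13 lower in E18 DKO), beside 56.9% of all tested genes (27.8% and 29.1%). Without E18 DKO 1 the call held for 15 members, 9 higher and 6 lower. Without E18 WT 3, the library rich in trophoblast genes, it held for 18.

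Markers of other cells are given beside this comparison. Summed CPM of 11 amnion and surface epithelium genes was 5267 to 6877 in E18 DKO and 2165 to 2735 in E18 WT, with 5 genes higher and 2 lower. Stromal genes summed to 2639.5 to 4751 CPM in E18 DKO and 13382 to 29274 CPM in E18 WT, with 1 of 8 higher and 6 lower. Genes shared by yolk sac endoderm and hepatocytes summed to 89551 to 174024 CPM in E18 DKO and 57959 to 89339 CPM in E18 WT, with 4 of 17 higher and 1 lower. Of their markers, Afp differed by 0.27 ± 0.44 (log2, SE; adjusted p = 0.645). The others did not move together. Apoa1 had 26755, 28217 and 54002 CPM in E18 DKO and 8882, 7138 and 6126 CPM in E18 WT. Cubn had 164, 306 and 1544 CPM in E18 DKO and 1470, 2207 and 643 CPM in E18 WT. Slc2a2 had 0.110, 1.02 and 43.1 CPM in E18 DKO and 38.7, 79.6 and 19.7 CPM in E18 WT. In Cubn and Slc2a2, E18 DKO 3 thus stood apart from E18 DKO 1 and 2. Macrophage genes summed to 908 to 1294 CPM in E18 DKO and 345 to 461 CPM in E18 WT, with 6 of 8 higher and 2 lower. Cornifying epidermis genes summed to 159 to 205 CPM in E18 DKO and 4.69 to 24.0 CPM in E18 WT, with 2 of 4 higher and none lower, Krt1 at 0 in E18 DKO and Cnfn at 0 in E18 WT. Trophoblast and decidua genes summed to 2.25 to 58.4 CPM in E18 DKO and 19.0 to 972 CPM in E18 WT, with 0 of 9 higher and 2 lower. Endothelial genes summed to 557 to 584 CPM in E18 DKO and 252 to 414 CPM in E18 WT, with 3 of 9 higher and 1 lower. Mammary and secretory genes summed to 40.03 to 97.0 CPM in E18 DKO and 0 to 0.205 CPM in E18 WT, with both tested genes higher and the defining Csn1s1 and Wap at 0 in every group. Neutrophil genes summed to 4.23 to 19.4 CPM in E18 DKO and 3.09 to 8.45 CPM in E18 WT, with 1 of 4 higher and 1 lower, and Elane at 0 in E18 DKO and E18 WT 1 and 3. The part of these differences in the P450 results was not tested.

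Among the enzymes of xenobiotic oxidation, Cyp2b10, the classic target of the drug receptor Nr1i3, had 5.44, 8.61 and 2.397 CPM in E18 DKO, against 0 CPM in all 3 E18 WT and all 3 E12 DKO libraries, and 0.352, 0 and 0 CPM in E12 WT. It was read in every E18 DKO library and otherwise only in E12 WT 1. With E18 WT set to the floor of 3 counts per library, the level in E18 DKO was higher by at least 50.8-fold, a description with no test. Cyp1b1, an oestradiol and procarcinogen hydroxylase, had 37.9, 43.3 and 21.7 CPM in E18 DKO and 0.678, 1.26 and 0.862 CPM in E18 WT, against 1.28, 1.36 and 1.11 CPM in E12 DKO and 9.60, 0.499 and 0.647 CPM in E12 WT. All E18 DKO libraries lay above all others, and E12 WT 1 was next. Its log2 difference between E18 DKO and E18 WT was 5.18 ± 0.99 (SE, n = 3 each; edgeR adjusted p = 0.00204).

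Cyp2s1 had 452, 352 and 302 CPM in E18 DKO and 150.3, 113 and 84.8 CPM in E18 WT, against 119.8, 131 and 126 CPM in E12 DKO and 393, 107 and 79.5 CPM in E12 WT. E18 DKO did not overlap with E18 WT or E12 DKO, but E12 WT 1 lay inside its range. The difference from E18 WT was 1.67 ± 0.50 (log2, SE; adjusted p = 0.0197). The call was lost without E18 DKO 1 (1.497, adjusted p = 0.0617), without E18 WT 2 (1.65, 0.0608) and without E18 WT 3 (1.48, 0.0684). Cyp2d22 had 46.1, 26.1 and 37.9 CPM in E18 DKO and 23.8, 23.2 and 18.3 CPM in E18 WT, against 25.3, 28.9 and 23.9 CPM in E12 DKO and 34.7, 29.3 and 31.5 CPM in E12 WT. Its E18 groups did not overlap, though E18 DKO 2 came close to the E18 WT libraries. It rose by 0.75 ± 0.21 (log2, SE; adjusted p = 0.0141), a call lost without E18 DKO 1 (0.55, adjusted p = 0.0692), without E18 WT 3 (0.64, 0.0517) and when scaled by library size alone (0.39, 0.158).

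The Cyp2a and Cyp2d26 genes moved the other way. Cyp2a12, a mouse liver hydroxylase of steroids and bile acids, had 0.0550, 0.213 and 0.490 CPM in E18 DKO and 7.01, 8.35 and 5.95 CPM in E18 WT, against 10.1, 11.9 and 14.6 CPM in E12 DKO and 4.32, 15.9 and 17.6 CPM in E12 WT. Every E18 DKO library was below 1 CPM and every other library above 4 CPM. It fell by 4.80 ± 0.65 (log2, SE; adjusted p = 0.000388), and the value was -5.61 (adjusted p = 0.000803) without E18 DKO 3. Cyp2d26 had 0.110, 0.171 and 0.0545 CPM in E18 DKO and 5.54, 3.05 and 2.95 CPM in E18 WT, against 2.20, 2.07 and 2.46 CPM in E12 DKO and 1.85, 2.60 and 2.77 CPM in E12 WT. Only the E18 DKO libraries were low, and the gene fell by 5.01 ± 0.48 (log2, SE; adjusted p = 9.19e-05).

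Cyp2a5, the coumarin hydroxylase of mouse, had 0.165, 0.0426 and 0.272 CPM in E18 DKO and 2.30, 1.03 and 9.77 CPM in E18 WT, against 2.10, 2.58 and 3.35 CPM in E12 DKO and 0.0440, 0.714 and 5.24 CPM in E12 WT. E18 WT 3 was the highest of all libraries and E12 WT 1 was as low as E18 DKO. It fell by 4.77 ± 1.40 (log2, SE; adjusted p = 0.0182). Without E18 WT 3 the value was -3.38 (0.0691), and the call was also lost without E18 DKO 1 (-4.81, 0.0588) and without E18 DKO 2 (-4.28, 0.0639), while without E18 DKO 3 it was kept at -5.39 (0.0396). Of all 50-base windows of its longest transcript, 40.8% also occur in other genes, with 31.0% in Cyp2a4, so its reads are uncertain. The share in other genes was 20.4% for Cyp2a12 and 10.5% for Cyp2d26, and 0% for Cyp1b1 and Cyp2s1. Among the other 5 xenobiotic members, the low Cyp2d40 had 1 read in all of E18 DKO, a level 15.5-fold lower than in E18 WT (95% counting interval 2.51 to 640.7); it is named here after its values were seen. Cyp2f2, Cyp2t4, Cyp2w1 and Cyp3a13 did not pass edgeR's test. Cyp2f2 (adjusted p = 0.0662) passed with DESeq2 (-2.17, 0.0242), limma voom (-2.92, 0.015), library size alone (-2.54, 0.0271), the replicate block (-2.46, 0.0473) and without E18 DKO 3 (-4.64, 0.0038).

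**Figure D2:**
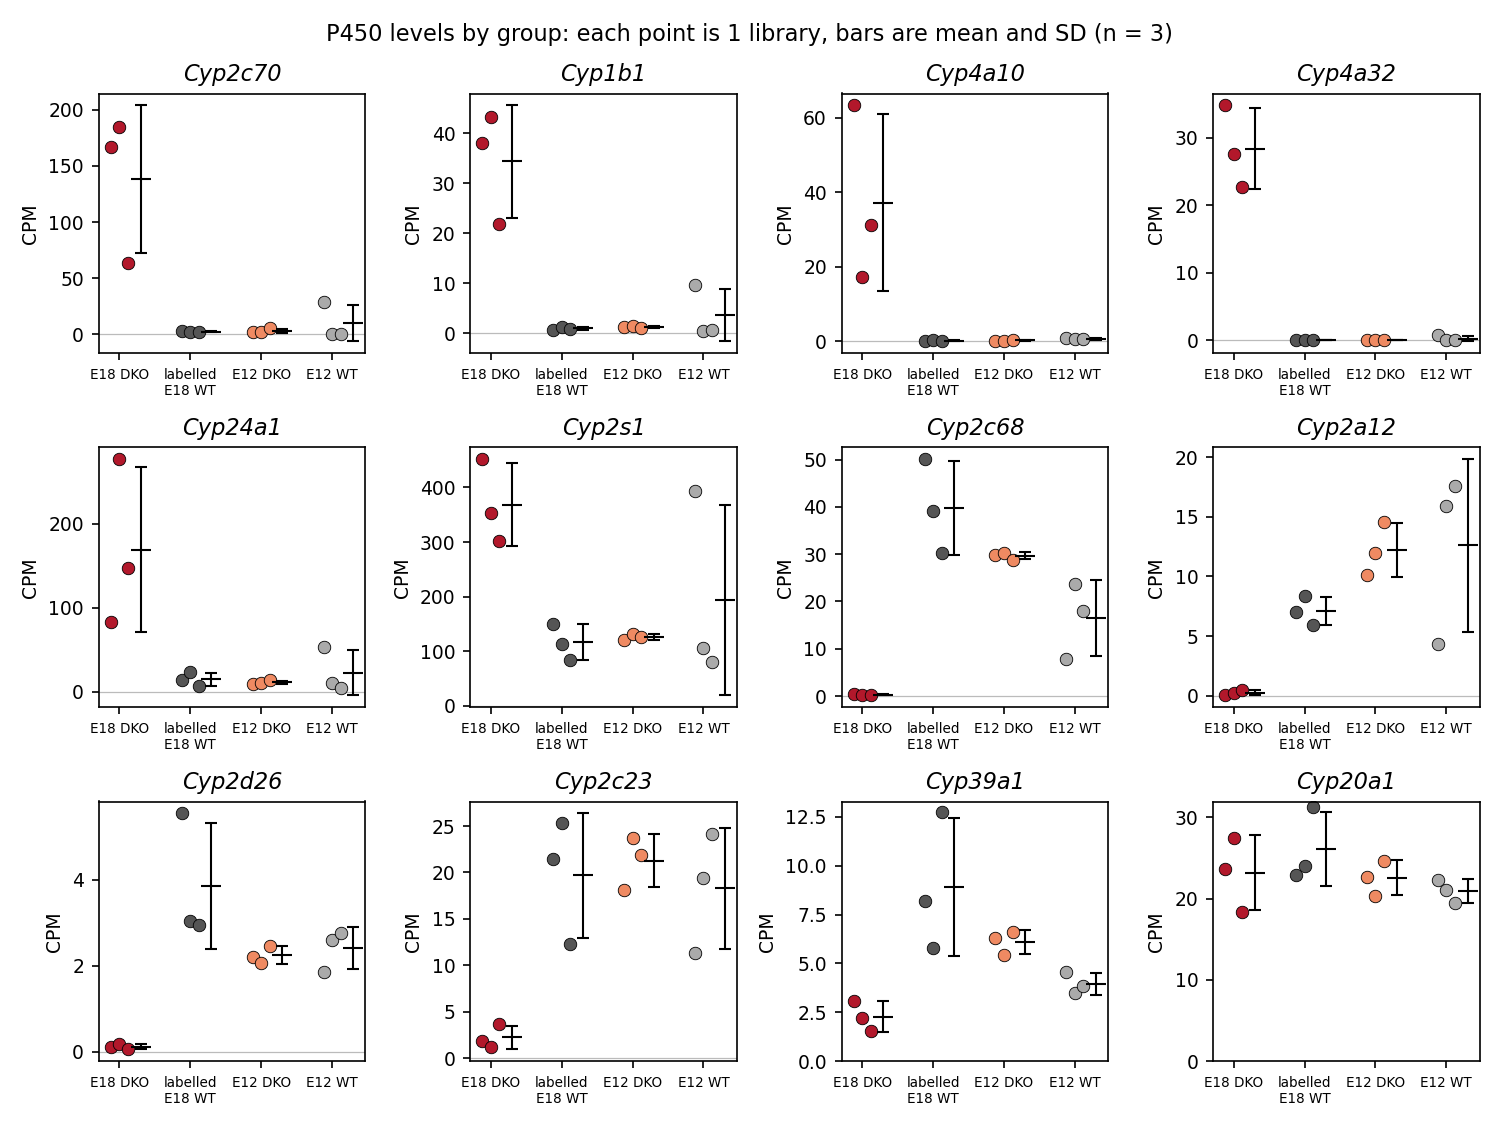
CPM of leading members in the 12 libraries, 1 point per library, with bars for the group mean and SD (n = 3) and groups in the order E18 DKO, E18 WT, E12 DKO and E12 WT. Cyp2c70 lies at 63.2 to 184 CPM in E18 DKO and at 1.76 to 2.68 CPM in E18 WT, and Cyp2c68 at 0.163 to 0.385 CPM in E18 DKO and at 30.3 to 50.1 CPM in E18 WT.

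The Cyp2c genes of chromosome 19, which act on arachidonic acid, drugs and bile acids, differed in opposite directions between E18 DKO and E18 WT. Cyp2c70 (chr19:40153353-40187333, minus strand) makes the muricholic acids of mouse bile, and Cyp2c68 (chr19:39688834-39741054, minus strand) lies on the same strand with other Cyp2c genes between them. Cyp2c70 had 167, 184 and 63.2 CPM in E18 DKO and 2.68, 2.11 and 1.76 CPM in E18 WT, against 2.33, 1.73 and 5.43 CPM in E12 DKO and 28.6, 0.607 and 0.824 CPM in E12 WT. Cyp2c68 had 0.385, 0.256 and 0.163 CPM in E18 DKO and 50.1, 39.1 and 30.3 CPM in E18 WT, against 29.8, 30.3 and 28.9 CPM in E12 DKO and 7.88, 23.7 and 18.1 CPM in E12 WT. In E18 DKO the first was high and the second close to 0, in E18 WT and E12 DKO the reverse held, and E12 WT 1 lay between. Group means were 138 ± 65.6 CPM in E18 DKO and 2.18 ± 0.46 CPM in E18 WT for Cyp2c70, and 0.268 ± 0.111 CPM in E18 DKO and 39.8 ± 9.9 CPM in E18 WT for Cyp2c68 (SD, n = 3 each). The log2 differences were 5.98 ± 1.31 (SE; adjusted p = 0.00435) for Cyp2c70 and -7.19 ± 0.49 (SE; adjusted p = 2.66e-05) for Cyp2c68, and neither call was lost without any 1 library.

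Cyp2c67 (chr19:39608842-39649051, minus strand) had no read in E18 DKO, and 1.21, 1.49 and 0.657 CPM in E18 WT, against 0.920, 0.644 and 1.11 CPM in E12 DKO and 0.0881, 1.14 and 2.06 CPM in E12 WT. Besides E18 DKO, E12 WT 1 was the lowest library. Against the floor of 3 counts per library it was at least 7.36-fold lower in E18 DKO than in E18 WT (adjusted p = 0.00389). Cyp2c23, an arachidonic acid epoxygenase, had 1.81, 1.19 and 3.65 CPM in E18 DKO and 21.4, 25.3 and 12.3 CPM in E18 WT, against 18.1, 23.8 and 21.9 CPM in E12 DKO and 11.3, 19.4 and 24.2 CPM in E12 WT. E18 DKO lay below every other library, and the gene fell by 3.16 ± 0.44 (log2, SE; adjusted p = 0.000454). Another gene holds 52.8% of the 50-base windows of Cyp2c67 (chiefly Cyp2c40) and 43.3% of those of Cyp2c68, so their reads are uncertain, but 0% of those of Cyp2c70 and Cyp2c23.

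Family CYP4 oxidises the end carbon of fatty acids. Cyp4a10 (chr4:115518264-115533649, plus strand), the best known Ppara target of the family, had 63.4, 17.2 and 31.1 CPM in E18 DKO and 0.0754, 0.293 and 0 CPM in E18 WT, against 0.0986, 0.136 and 0.36003 CPM in E12 DKO and 0.969, 0.464 and 0.530 CPM in E12 WT. Its neighbour Cyp4a32 (chr4:115600969-115621602, plus strand) had 34.8, 27.6 and 22.8 CPM in E18 DKO and 0.0377, 0.0586 and 0 CPM in E18 WT, against 0.0329, 0.0339 and 0.0277 CPM in E12 DKO and 0.705, 0.0357 and 0 CPM in E12 WT. Both were above 17 CPM in every E18 DKO library and below 1 CPM in every other library. Cyp4a10 rose by 8.06 ± 0.88 (log2, SE; adjusted p = 0.000138), with 7.46 (0.000878) without E18 DKO 1 and 9.72 (0.00065) without E18 WT 2. Cyp4a32 had 3 reads in all of E18 WT, so its difference is given as a ratio of pooled rates, 802-fold with a 95% counting interval of 274 to 3893, a description with no test. Of the windows of Cyp4a32, 34.8% also occur in Cyp4a10, and 25.0% of those of Cyp4a10 in Cyp4a32, so the split of reads between them is uncertain.

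Cyp4f13 had 39.3, 34.7 and 47.2 CPM in E18 DKO and 14.8, 14.8 and 12.8 CPM in E18 WT, against 12.7, 14.4 and 13.8 CPM in E12 DKO and 25.1, 16.9 and 22.5 CPM in E12 WT. E18 DKO was above and E12 DKO below all E12 WT libraries. It rose by 1.51 ± 0.19 (log2, SE; adjusted p = 0.000227). Cyp4b1, a lung-type enzyme that activates certain protoxins, had 3.02, 2.05 and 1.14 CPM in E18 DKO and 0.188, 0.527 and 0.780 CPM in E18 WT, against 0.920, 0.915 and 0.886 CPM in E12 DKO and 1.01, 1.25 and 0.883 CPM in E12 WT. Its E18 groups did not overlap, but E18 DKO 3 lay within the range of E12 WT. It rose by 2.05 ± 0.51 (log2, SE; adjusted p = 0.0087).

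Cyp4v3, the mouse orthologue of the human retinal disease gene CYP4V2, had 10.1, 9.34 and 4.19 CPM in E18 DKO and 2.98, 1.99 and 2.83 CPM in E18 WT, against 2.00, 3.80 and 2.85 CPM in E12 DKO and 3.17, 0.535 and 1.65 CPM in E12 WT. All E18 DKO libraries were the highest, though E18 DKO 3 stood only slightly above E12 DKO 2. The rise of 1.60 ± 0.55 (log2, SE; adjusted p = 0.0375) was lost without E12 DKO 3 (1.595, 0.0529), E18 DKO 1 (1.38, 0.114), E18 DKO 2 (1.45, 0.0924), E18 WT 1 (1.70, 0.0759), E18 WT 2 (1.43, 0.117) or E18 WT 3 (1.66, 0.0739), scaled by library size alone (1.26, 0.0714) and with replicate number as a block (1.57, 0.0536). A same-strand gene overlaps 313 bases of it. Cyp4f39, which serves skin ceramides, had no read in E18 DKO and 0.226, 0.439 and 0.0821 CPM in E18 WT, against 0.0329, 0.441 and 0.388 CPM in E12 DKO and 0.0440, 0.143 and 0 CPM in E12 WT. It was low everywhere, and at least 1.64-fold lower in E18 DKO than in E18 WT against the floor. Cyp2j6, Cyp4a31, Cyp4f16 and Cyp4f17 did not pass edgeR's test, though Cyp4a31 passed with DESeq2 (2.97, 0.0485) and without E18 DKO 2 (3.49, 0.0257), and Cyp2j6 with library size alone (-1.34, 0.0259).

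**Figure D3:**
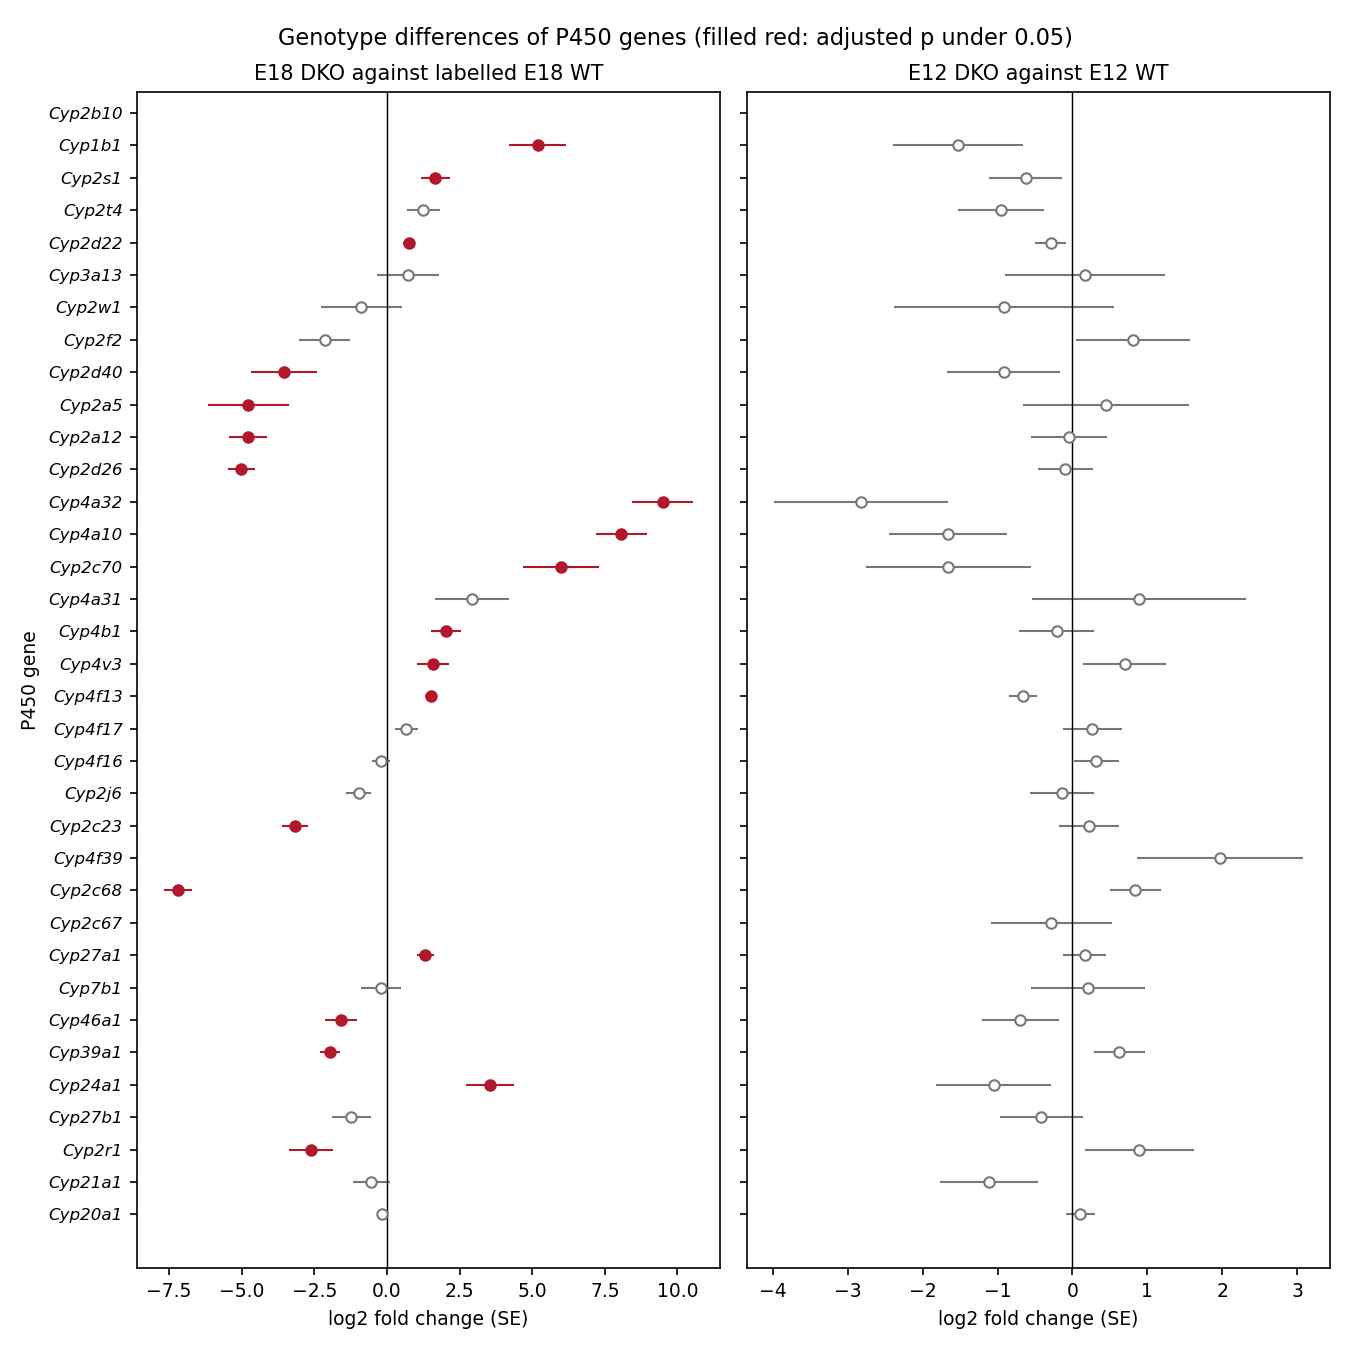
Log2 fold changes with SE of the members, DKO against WT, with E18 and E12 in separate panels whose horizontal scales differ; members with a group at 0 counts are left out. At E18 the values run from -7.19 for Cyp2c68 to 9.48 for Cyp4a32. The latter is a fitted value that depends on the prior count, since E18 WT held 3 reads. Filled points mark an adjusted p under 0.05, and at E12 no member passed the test. The E18 points of Cyp4a32 and Cyp2d40 are filled too but are descriptions. Both members met the count minimum only with groups where they were high.

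Of the sterol enzymes, Cyp27a1, the mitochondrial sterol hydroxylase of bile acid synthesis, had 23.0, 21.9 and 40.03 CPM in E18 DKO and 11.3, 14.0 and 8.78 CPM in E18 WT, against 14.3, 14.1 and 15.3 CPM in E12 DKO and 17.1, 9.31 and 12.6 CPM in E12 WT. E18 DKO was above every other library, with a rise of 1.31 ± 0.29 (log2, SE; adjusted p = 0.00468). Cyp39a1, an oxysterol hydroxylase, had 3.08, 2.22 and 1.53 CPM in E18 DKO and 8.18, 5.80 and 12.7 CPM in E18 WT, against 6.31, 5.42 and 6.59 CPM in E12 DKO and 4.58, 3.46 and 3.83 CPM in E12 WT. E18 DKO was the lowest group and E18 WT overlapped E12 DKO. It fell by 1.97 ± 0.35 (log2, SE; adjusted p = 0.00139). Cyp46a1, the cholesterol hydroxylase best known from neurons, had 0.824, 0.682 and 1.74 CPM in E18 DKO and 2.79, 4.01 and 2.91 CPM in E18 WT, against 4.34, 4.27 and 2.80 CPM in E12 DKO and 2.16, 5.82 and 10.5 CPM in E12 WT. E18 DKO was below every other library. The fall of 1.58 ± 0.55 (log2, SE; adjusted p = 0.0366) was lost without E12 DKO 1 (-1.59, 0.0503), E12 DKO 2 (-1.59, 0.0509), E12 WT 2 (-1.57, 0.05), E18 DKO 1 (-1.42, 0.116), E18 DKO 2 (-1.33, 0.114), E18 WT 1 (-1.68, 0.0584), E18 WT 2 (-1.40, 0.102) or E18 WT 3 (-1.66, 0.0557), and with limma voom (-1.70, 0.0551). Cyp7b1 did not pass edgeR's test.

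Vitamin D enzymes were read in all 4 groups. Cyp24a1, which inactivates the hormone and is induced by it, had 83.1, 276 and 147 CPM in E18 DKO and 13.7, 22.8 and 6.81 CPM in E18 WT, against 9.10, 10.3 and 13.2 CPM in E12 DKO and 53.5, 9.63 and 4.47 CPM in E12 WT. All E18 DKO libraries were above the rest, and E12 WT 1 was next. The difference between E18 DKO, at 169 ± 98.5 CPM, and E18 WT, at 14.4 ± 8.0 CPM (SD, n = 3 each), was 3.55 ± 0.84 on the log2 scale (SE; adjusted p = 0.00628). Vdr, the vitamin D receptor, had 789, 1414 and 838 CPM in E18 DKO and 61.0, 72.2 and 36.9 CPM in E18 WT, against 51.3, 55.6 and 60.3 CPM in E12 DKO and 929, 40.9 and 29.4 CPM in E12 WT; it is named here after its values were seen. Its order of libraries was that of high E18 DKO and E12 WT 1 libraries and low others, and it was higher in E18 DKO than in E18 WT by 4.16 ± 1.10 (log2, SE; adjusted p = 0.011).

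Cyp2r1, which takes the first step of vitamin D activation, had 0.0550, 0.512 and 0.163 CPM in E18 DKO and 1.66, 2.02 and 0.985 CPM in E18 WT, against 0.460, 0.305 and 1.36 CPM in E12 DKO and 0.352, 0.535 and 0.235 CPM in E12 WT. It was low in E18 DKO but overlapped both E12 groups. The fall of 2.61 ± 0.76 (log2, SE; adjusted p = 0.0178) was lost without E18 DKO 1 (-2.16, 0.061), E18 DKO 3 (-2.39, 0.0609) or E18 WT 2 (-2.37, 0.0555) and was -3.78 (0.00952) without E18 DKO 2. Cyp27b1, the activating hydroxylase, had 0.165, 0.0853 and 0.218 CPM in E18 DKO and 0.264, 0.264 and 0.575 CPM in E18 WT, against 0.920, 1.02 and 0.609 CPM in E12 DKO and 0.396, 1.43 and 1.59 CPM in E12 WT. Its E18 groups did not overlap, but the difference of -1.22 ± 0.66 (log2, SE) did not pass (adjusted p = 0.157).

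Cyp21a1 had 113, 164 and 123 CPM in E18 DKO and 286, 98.8 and 197 CPM in E18 WT, against 132, 117 and 175 CPM in E12 DKO and 704, 104 and 107 CPM in E12 WT. The groups overlapped and E12 WT 1 was by far the highest library. Its E18 difference was -0.54 ± 0.65 (log2, SE; adjusted p = 0.528), and 23.7% of its windows also occur in another gene, chiefly its pseudogene Cyp21a2-ps. Cyp20a1, an orphan P450 with no agreed substrate, had 23.7, 27.5 and 18.3 CPM in E18 DKO and 22.9, 24.1 and 31.3 CPM in E18 WT, against 22.7, 20.3 and 24.6 CPM in E12 DKO and 22.3, 21.1 and 19.4 CPM in E12 WT. It varied little over the 12 libraries, with an E18 difference of -0.17 ± 0.19 (log2, SE; adjusted p = 0.489).

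In E12 DKO against E12 WT, edgeR called 0 of the 35 members, beside 0.353% of all tested genes (0.0936% higher and 0.259% lower, 17 and 47 genes, but 41 and 14 by library size alone). At an unadjusted p under 0.05 there were 3 members (8.57%, beside 24.3% of all tested genes), DESeq2 called 1 and limma voom 0. The lowest adjusted p was that of Cyp4f13, at 0.0895, with a difference of -0.66 ± 0.18 (log2, SE) and E12 DKO below E12 WT in all libraries. Groups did not overlap for 5 members (2 higher and 3 lower in E12 DKO), beside 30.1% of all tested genes (15.7% and 14.4%), and among them Cyp2c68 was higher in E12 DKO by 0.84 ± 0.34 (log2, SE; adjusted p = 0.169). Several values rested on E12 WT 1. For Cyp2c70 the difference was -1.66 ± 1.11 (log2, SE; adjusted p = 0.374) with that library and 2.18 (0.0419) without it, and for Cyp1b1 it was -1.52 ± 0.87 (SE; 0.3) with it and 1.14 (0.0671) without it. Cyp3a13 also passed without E12 WT 1 (3.47, 0.0217); it is named after its values were seen. For Cyp24a1 the values were -1.05 (0.419) with that library and 0.61 (0.475) without it.

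E12 WT 1 often lay at 1 end of E12 WT, among all genes as well as among the members. It was the highest of the 3 E12 WT libraries for 11 of the 12 members that rose in E18 DKO against E18 WT (91.7%), and for 67.4% of all genes that rose. It was the lowest for 8 of the 11 members that fell (72.7%), and for 67.8% of all genes that fell. This count was made after the values were seen, and the difference between the shares was not tested.

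In E18 DKO against E12 DKO, a comparison that shares the E18 DKO libraries with the one above, 9 members rose and 12 fell, or 7 and 10 among the 31 that met the minimum without any 1 group. The calls are 60% of the members, beside 46% of all tested genes, with 23.2% higher and 22.8% lower. Scaled by library size alone the split was 7 and 12 among the members, and 2809 and 5947 among all tested genes. Groups did not overlap for 25 members (13 higher and 12 lower in E18 DKO), beside 67.2% of all tested genes (33.1% and 34.1%). The median log2 fold change was 0.42 over the members and -0.02 over all tested genes. Fatty acid and arachidonic acid enzymes held 4 rises and 4 falls, and xenobiotic enzymes 3 and 5. Sterol enzymes held 1 and 2, and vitamin D enzymes 1 and 1. Again these counts include Cyp4a32 and Cyp2b10 as rises and Cyp4f39 and Cyp2d40 as falls, which are descriptions.

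The members' values in this comparison were, on the log2 scale, 7.48 ± 0.84 (SE; adjusted p = 0.000127) for Cyp4a10, 5.44 ± 1.27 (0.00547) for Cyp2c70 and 4.78 ± 0.96 (0.00244) for Cyp1b1. Without E12 DKO 3 they were 8.25 for Cyp4a10 and 6.08 for Cyp2c70, and without E18 DKO 1 Cyp4a10 was at 6.87. Cyp24a1 rose by 3.96 ± 0.85 (0.00354) and Cyp4f13 by 1.57 ± 0.19 (0.000162). As a description, Cyp2b10 was at least 58.1-fold higher against the floor, and Cyp4a32 906-fold higher by pooled rates (95% counting interval 309.5 to 4397).

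Cyp2c68 fell by 6.77 ± 0.48 (log2, SE; adjusted p = 2.58e-05) against E12 DKO, and the values were -5.58 ± 0.67 (0.000166) for Cyp2a12, or -6.39 without E18 DKO 3, -4.23 ± 0.47 (0.000121) for Cyp2d26 and -3.27 ± 0.44 (0.000292) for Cyp2c23. Cyp27b1, which did not pass at E18, fell by 2.43 ± 0.65 (0.0105), Cyp39a1 fell by 1.42 ± 0.34 (0.00642), and Cyp2c67 was at least 5.86-fold lower against the floor (0.00453). Other calls were lost with 1 library fewer, mostly at a similar fold. Cyp2s1 (1.55 ± 0.50, 0.0246) was lost without E12 DKO 1 (1.52, 0.0739), E12 DKO 2 (1.58, 0.0647), E12 DKO 3 (1.55, 0.0684) or E18 DKO 1 (1.38, 0.075), and by library size alone (1.22, 0.0512). Cyp27a1 (0.96 ± 0.29, 0.0194) was lost without E12 DKO 1 (0.94, 0.0618), E12 DKO 2 (0.93, 0.0626), E12 DKO 3 (0.99, 0.0511) or E18 DKO 3 (0.62, 0.0954), and by library size alone (0.59, 0.0785). Cyp2a5 (-4.07 ± 1.38, 0.0317) was lost without any 1 of the 6 libraries (-4.70 to -3.59, at adjusted p from 0.0504 to 0.097) and with limma voom (-4.16, 0.056). Cyp46a1 (-1.81 ± 0.55, 0.0192) was lost without E12 DKO 1 (-1.71, 0.053), E12 DKO 2 (-1.73, 0.0522), E18 DKO 1 (-1.66, 0.0702) or E18 DKO 2 (-1.57, 0.0669). Cyp4f39 was at least 1.89-fold lower against the floor.

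In the libraries labelled E18 WT against E12 WT, edgeR called 0 of the 35 members, beside 0.953% of all tested genes (0.292% higher and 0.661% lower, 53 and 120 genes, but 181 and 91 by library size alone). At an unadjusted p under 0.05 there were 9 members (25.7%, beside 18.1% of all tested genes), DESeq2 called 3 and limma voom 0. Groups did not overlap for 10 members, 5 each way, beside 17.9% of all tested genes (9.29% higher and 8.6% lower). Cyp2c68 differed by 1.27 ± 0.35 (log2, SE; adjusted p = 0.111), Cyp27b1 by -1.63 ± 0.58 (0.185) and Cyp2r1 by 2.02 ± 0.73 (0.186). Without E12 WT 1, Cyp2c68 (0.93, 0.038), Cyp27b1 (-2.04, 0.0349) and Cyp3a13 (3.83, 0.0242) passed.

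The genotype effect at E18 minus that at E12 passed the test for 21 members, 12 higher and 9 lower, and for 7 and 11 when scaled by library size alone. Among the 31 members that met the minimum without any 1 group they were 10 and 8. The calls are 60% of the members, beside 41.9% of all tested genes, with 21.6% higher and 20.3% lower. The leading values were 9.73 for Cyp4a10 (adjusted p = 0.000258), 7.64 for Cyp2c70 (0.00483), 6.71 ± 1.30 for Cyp1b1 (SE; 0.00238) and 4.60 for Cyp24a1 (0.00805), and on the lower side -8.04 for Cyp2c68 (5.39e-05), -5.22 for Cyp2a5 (0.0352), -4.91 for Cyp2d26 (0.000273) and -4.75 for Cyp2a12 (0.00133), all on the log2 scale. Many were smaller without E12 WT 1, with Cyp2c70 at 3.80 (0.00447), Cyp1b1 at 4.04 (0.000188), Cyp24a1 at 2.93 (0.00893) and Cyp2s1 at 1.23 (0.0115, against 2.29 and 0.0216 with it). Without that library the call was lost for Cyp27a1 (0.89, 0.0774), for Cyp2t4 (2.23, 0.0602), named after its values were seen, and for Cyp2b10, whose only reads outside E18 DKO lay in it. The call for Cyp27a1 (1.15, 0.0419) was lost without 8 of the 12 libraries in turn (0.81 to 1.18), with limma voom (1.03, 0.0633), no filter (1.13, 0.0576), the replicate block (1.11, 0.072) and library size alone (0.45, 0.333). Without E12 DKO 3, Cyp4a10 was at 10.49 and the call for Cyp2r1 was lost (-2.62, 0.0677), without E18 DKO 1 Cyp4a10 was at 9.13 and without E18 WT 2 at 11.38. Cyp2a5 was at -7.54 (0.00441) without E12 WT 3, -5.85 (0.051) without E18 DKO 3 and -3.83 (0.0939) without E18 WT 3, and lost its call without 8 of the 12 libraries in turn, and Cyp2a12 at -5.57 (0.00144) without E18 DKO 3.

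Summed over subfamilies, Cyp4a stood at 68.0 ± 30.9 CPM in E18 DKO, 0.460 ± 0.477 CPM in E18 WT, 0.487 ± 0.313 CPM in E12 DKO and 1.04 ± 0.702 CPM in E12 WT (SD, n = 3 each). In Cyp2a, E18 DKO was instead the lowest group, with 0.413 ± 0.303 CPM in E18 DKO, 11.5 ± 3.68 CPM in E18 WT, 14.9 ± 2.88 CPM in E12 DKO and 14.6 ± 9.40 CPM in E12 WT. The Cyp2c sum was 141 ± 64.4 CPM in E18 DKO, nearly all of it Cyp2c70, and 62.8 ± 15.8 CPM in E18 WT, 55.0 ± 3.33 CPM in E12 DKO and 46.0 ± 1.67 CPM in E12 WT, mostly Cyp2c68 and Cyp2c23. In E12 WT 1, however, Cyp2c70 had 28.6 CPM of a sum of 47.9 CPM. The Cyp2c sum thus differed far less than its members did. Cyp4f summed to 50.3 ± 4.73 CPM in E18 DKO, 23.2 ± 1.87 CPM in E18 WT, 22.8 ± 1.21 CPM in E12 DKO and 28.8 ± 3.06 CPM in E12 WT. Cyp2d, led by Cyp2d22, had 36.8 ± 10.05 CPM in E18 DKO, 25.9 ± 4.18 CPM in E18 WT, 28.5 ± 2.37 CPM in E12 DKO and 34.7 ± 2.04 CPM in E12 WT. These sums were not tested.

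**Figure D4:**
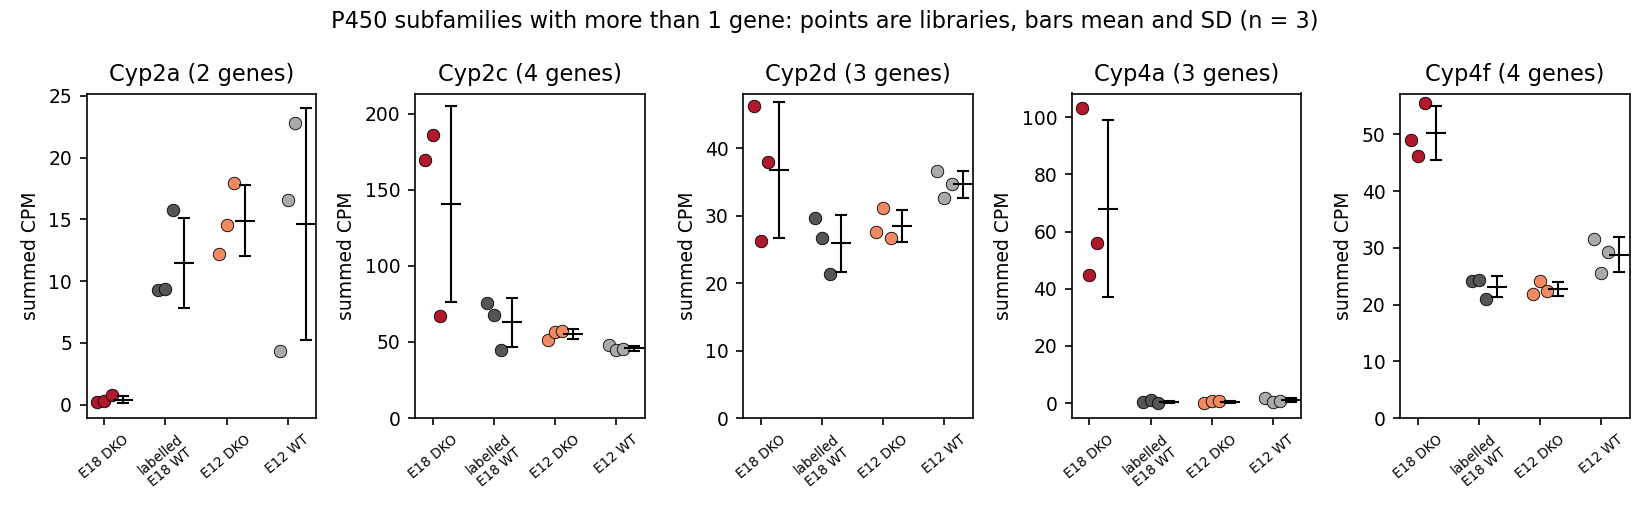
Summed CPM of the Cyp2a, Cyp2c, Cyp2d, Cyp4a and Cyp4f members in the 12 libraries, 1 point per library, with groups in the order E18 DKO, E18 WT, E12 DKO and E12 WT and bars for the group mean and SD (n = 3). Cyp4a averages 68.0 CPM in E18 DKO and at most 1.04 CPM in the other groups, and Cyp2a averages 0.413 CPM in E18 DKO and at least 11.5 CPM in the others.

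Genes that serve these enzymes were read from 5 lists in E18 DKO against E18 WT, where 42.3% of all tested genes were called. Among 10 redox partners, 4 rose and 2 fell (60% called), with a median log2 fold change of 0.13. Por had 431, 721 and 303 CPM in E18 DKO and 79.7, 95.8 and 52.1 CPM in E18 WT, against 99.2, 96.9 and 108 CPM in E12 DKO and 246, 111 and 82.8 CPM in E12 WT, a rise of 2.68 ± 0.43 (log2, SE; adjusted p = 0.000899). Fdx1 had 192, 302 and 159.6 CPM in E18 DKO and 23.8, 16.8 and 23.1 CPM in E18 WT, against 17.3, 13.7 and 18.4 CPM in E12 DKO and 149.6, 25.7 and 19.2 CPM in E12 WT, a rise of 3.36 ± 0.67 (SE; 0.00265). In both genes, E18 DKO was above every other library and E12 WT 1 was next. Cyb5b, the cytochrome b5 of the outer mitochondrial membrane, fell by 0.87 ± 0.16 (SE; 0.00166). Among 13 genes of heme synthesis and breakdown, 2 rose and 3 fell (38.5% called, below the share of all genes; median -0.26). The synthesis enzyme gene Alas2 fell by 2.07 (0.01), and Alad rose by 1.63 (0.0222). Alas1, named here after its values were seen, had 48.4, 48.1 and 48.1 CPM in E18 DKO and 30.9, 43.7 and 28.5 CPM in E18 WT. Erythroid genes, which share this pathway, summed to 1025 to 1900 CPM in E18 DKO and 8166 to 12780 CPM in E18 WT.

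Of 17 receptors and factors that control P450 genes, 4 rose and 1 fell (29.4% called, below the share of all genes; median 0.25). Ppard, the fatty acid receptor PPAR delta, rose by 1.19 (log2; adjusted p = 0.0017) and Cebpa by 0.95 (0.00565). Nr1i2, the pregnane X receptor, had 0.165, 0.128 and 0.163 CPM in E18 DKO and 1.17, 0.879 and 0.862 CPM in E18 WT and fell by 2.64 (0.00777). The receptors known for inducing Cyp1b1, Cyp2b10 and Cyp4a10 did not pass: Ahr differed by -0.41 (0.23), Nr1i3 by 0.16 (0.602) and Ppara by 0.48 (0.427). Hnf4a, whose motif the Cyp2c67, Cyp2c68 and Cyp2c70 promoters hold, differed by -0.35 (0.373). These values are transcript levels and do not measure receptor activity. A part of these receptors and factors in the P450 values was not tested.

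Of 15 PPAR target genes, 2 rose and 7 fell (60% called), with a median of -0.55. Angptl4, an inhibitor of lipoprotein lipase, rose by 2.11 (log2; adjusted p = 0.00118), but the thioesterase gene Acot1 fell by 4.06 (9.23e-05) and the lipid droplet gene Plin2 by 0.97 (0.00139). Pdk4, named here after its values were seen, had 253, 305 and 166 CPM in E18 DKO and 11.1, 9.70 and 5.99 CPM in E18 WT. It was at 99.1 CPM in E12 WT 1. More of the list fell than rose, and Cyp4a10 rose. A part of PPAR receptors in these values was not tested. Of 26 epoxide hydrolase and conjugating enzyme genes, 5 rose and 9 fell (53.8% called), with a median of -0.43. The sulfotransferase gene Sult1d1 rose by 4.61 (9.24e-05), the glutathione transferase gene Gsta3 fell by 5.86 (0.000124) and the glucuronosyltransferase gene Ugt2b5 fell by 6.13 (0.000714). In E12 DKO against E12 WT, edgeR called none of the 81 genes of these 5 lists, and 17 (21%) had an unadjusted p under 0.05, beside 24.3% of all tested genes.

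**Figure D5:**
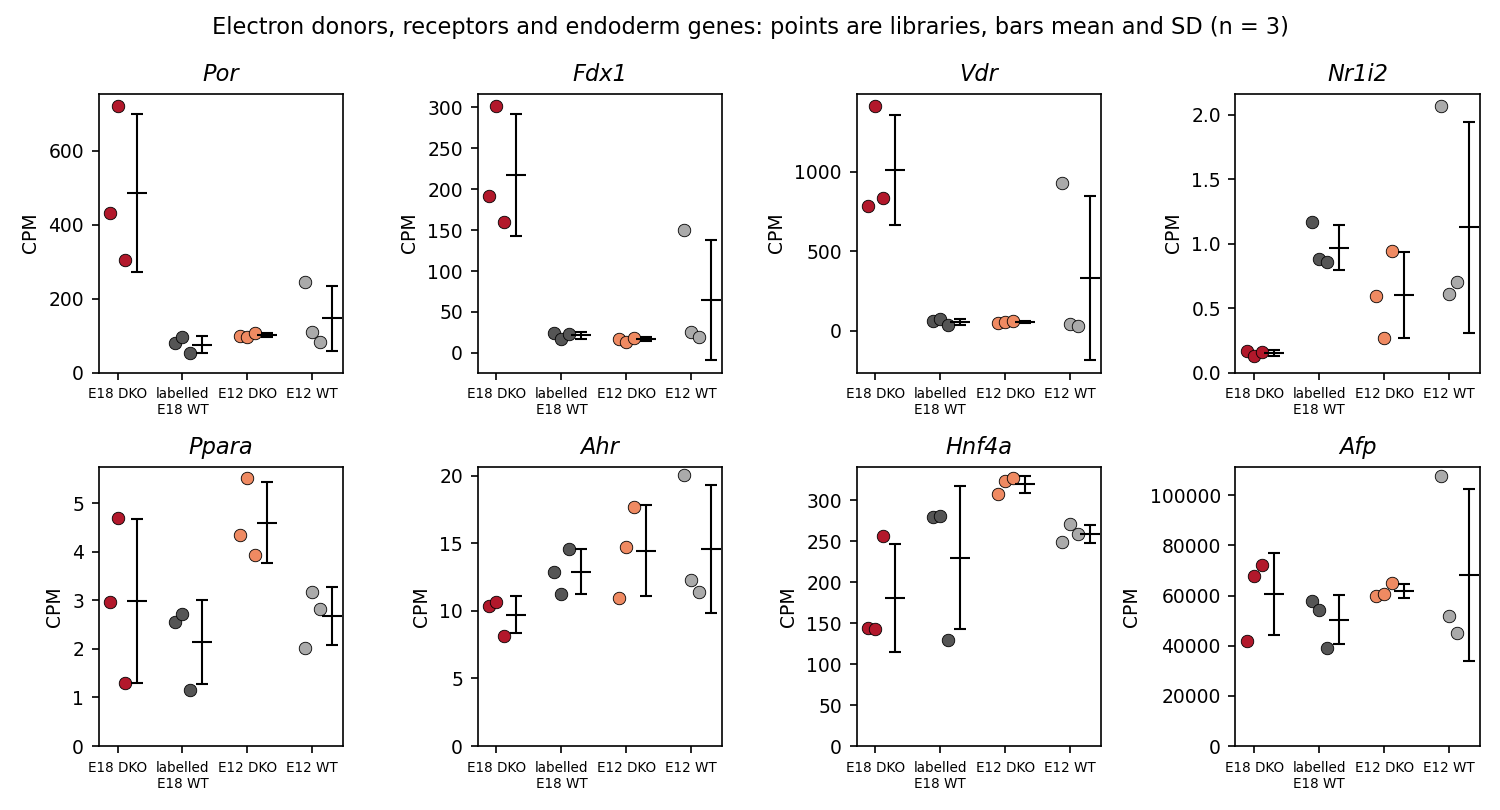
CPM of Por, Fdx1, Vdr, Nr1i2, Ppara, Ahr, Hnf4a and the endoderm gene Afp in the 12 libraries, 1 point per library, with bars for the group mean and SD (n = 3) and groups in the order E18 DKO, E18 WT, E12 DKO and E12 WT. Vdr lies at 789 to 1414 CPM in E18 DKO and at 36.9 to 72.2 CPM in E18 WT, with E12 WT 1 at 929 CPM.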

How the data were processed

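The deposited values are raw counts of reads per gene, made with featureCounts 1.5.0 (strand option 2) on Ensembl release 86 of GRCm38, per the file headers. The submitters' processing notes name Trimmomatic 0.36, STAR 2.4.2a and Subread 1.5.0. The file of E12 DKO 1 gave no count column used here, and its column of the series table was used. Groups follow the labels. Genes were filtered with filterByExpr, leaving 18153, scaled with TMM factors and fitted in edgeR 4.0.16 (R 4.3.3) with a mean per group over all 12 libraries (8 residual degrees of freedom, biological coefficient of variation 0.373), a step tested on simulated data. Quasi-likelihood p-values were adjusted by Benjamini-Hochberg across those genes, with a call at under 0.05 whatever the fold, and SE is the log2 fold change, without its sign, over the root of F. Against a group at 0, folds are bounds at 3 counts per library, and with 1 to 3 counts they are ratios with exact 95% intervals; both cover counting error only. Named members were those called with a mean of at least 1 CPM, up to 10 each way per comparison and 4 for the difference of effects, the 3 highest per role, and Cyp4a32; from each partner list up to 3 genes were named by adjusted p. The members and lists were chosen with earlier results of these data known. DESeq2 1.42.0, limma 3.58.1 voom, other scalings and filters, the replicate number as a block and the omission of libraries were alternatives. Of the partner lists, 1 gene is not reported here.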

Additional observations from a re-analysis of the deposited data

Results flagged for a closer look

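The genotype effect differed between the labelled stages, by the test of the difference itself (E18 minus E12, edgeR's quasi-likelihood test, adjusted p under 0.05), for 21 members. On the log2 scale the higher ones were Cyp4a10 at 9.73, Cyp2c70 at 7.64, Cyp1b1 at 6.71, Cyp24a1 at 4.60, Cyp2s1 at 2.29, Cyp4b1 at 2.26, Cyp2t4 at 2.20, Cyp4f13 at 2.17, Cyp27a1 at 1.15 and Cyp2d22 at 1.04. The fitted values of Cyp2b10 at 14.82 and Cyp4a32 at 12.31 depend on the prior count, because groups held few or no reads. Lower ones were Cyp2c68 at -8.04, Cyp2a5 at -5.22, Cyp2d26 at -4.91, Cyp2a12 at -4.75, Cyp2r1 at -3.50, Cyp2c23 at -3.37 and Cyp39a1 at -2.59, with Cyp2c67 at -7.58 and Cyp4f39 at -7.72, whose fitted values also depend on the prior count. The Cyp2t4 call was lost without 10 of the 12 libraries in turn, with the replicate block (0.0639), with library size alone (0.141) and with no filter (0.103). The Cyp4b1 call was lost without 5 libraries, each E12 DKO library among them, and the Cyp27a1 call without 8 and with the block (0.072). Cyp2b10, Cyp4a32 and Cyp4f39 met the count minimum only with a group where they were high, so their values are descriptions. Each difference rests on the doubtful stage of E18 WT and of E12 WT 1. Groups of 3 libraries were too small for a search for single outlying values.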

How the results depend on the processing

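No called member changed its sign under any alternative run. Of the 23 members called in E18 DKO against E18 WT, 15 were called in every alternative fit that held them. Of the 21 in E18 DKO against E12 DKO these were 14, and of the 21 in the difference of effects 13. Cyp4a32 is among the 15, the 14 and the 13, Cyp2b10 among the 15 and the 14, and Cyp4f39 among the 13. They met the minimum only with a group where they were high, so they are descriptions and their place there supports nothing. Leaving out 1 library gave 15 to 23 members called in E18 DKO against E18 WT, 0 to 2 in E12 DKO against E12 WT and 0 to 3 in E18 WT against E12 WT. DESeq2 called 1 member in E12 DKO against E12 WT and 3 in E18 WT against E12 WT, and the fit without both E12 WT 1 and E18 WT 3 called 2 and 3. Over all genes, 64 were called in E12 DKO against E12 WT, 1 to 3199 without 1 library, 2085 with DESeq2, 0 with only the groups compared, 5 with the replicate block and 3753 without both libraries. For E18 WT against E12 WT the counts were 173, 35 to 1684, 272 by library size alone, 1223 with DESeq2, 56 with only the groups compared, 77 with the block and 1028 without both. Cyp2c70 in E12 DKO against E12 WT reversed to 0.23 with voom and 2.19 without both, and ran from -2.30 to 2.18 without 1 library. Cyp3a13 reversed in the difference of effects to -0.12 by library size alone, -1.43 with voom, -1.31 with the block and -2.93 without both, and without 1 library ran from -2.74 to 1.11 there, from -0.37 to 3.47 in E12 DKO against E12 WT and from -0.0045 to 3.83 in E18 WT against E12 WT. The causes were not tested. Library size alone moved the median log2 fold change of all genes to -0.41 in E18 DKO against E18 WT, -0.37 in E18 DKO against E12 DKO, -0.65 in the difference, 0.22 in E12 DKO against E12 WT and 0.27 in E18 WT against E12 WT. Of 18 same-number pairs of libraries, 4 correlated above 0.1 (range -0.197 to 0.291), and 6 of 12 libraries matched their own number best. With 3 libraries per group, these values cannot decide whether replicate numbers pair the libraries. The block gave 23, 20 and 21 members in E18 DKO against E18 WT, the difference and E18 DKO against E12 DKO. Members under 1 CPM rest on few reads, so their differences are the least certain at this depth.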
